A study of Mus musculus with 3 samples.

Results

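The noncoding RNA genes Malat1, Neat1, Meg3, Rian, Mirg, Snhg11, Snhg14, Miat and Bc1 were followed through single-nucleus RNA sequencing of mouse dorsal root ganglia (DRG). They are 9 of the 32227 genes counted, and they were chosen by name as noncoding RNAs already known to give many counts in these same libraries, so that their abundance is a description. DRG hold the cell bodies of sensory neurons with the satellite glial cells (SGCs) wrapped around them, myelinating and non-myelinating Schwann cells (MSCs and NMSCs), fibroblasts, vessel cells and immune cells. Nuclei were taken from the L3, L4 and L5 ganglia of wild type C57BL/6 mice and captured by PIP-seq, which holds single nuclei in templated droplets and tags each captured RNA molecule with a unique molecular identifier (UMI). There was 1 adult library (3 months) and 2 aged libraries (21 months), and the labels name no treatment. The labels give all mice as male, whereas the study's methods give adult mice of both sexes and name aged mice as female in one place and as of both sexes in another. The design text of the series gives a lower age for the aged mice than the labels do, and the labels were followed. The labels do not say how many mice went into a library. Since there is 1 adult library, age and whatever else sets it apart from the aged ones cannot be told apart. The p-values for age rest on the spread between the 2 aged libraries, moderated by edgeR over all genes, and measure nothing beyond these libraries.

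Each of these RNAs has a known place in the cell. Malat1 is kept in nuclear speckles, and Neat1 is the scaffold of paraspeckles, nuclear bodies that hold RNA and RNA-binding proteins. Meg3, Rian and Mirg lie one after another on the maternally expressed side of the imprinted Dlk1-Dio3 domain, where Rian carries many small nucleolar RNAs (snoRNAs) and Mirg many microRNAs in their introns. Snhg11 and Snhg14 are snoRNA host genes, and Snhg14 is a long paternally expressed RNA that runs antisense through Ube3a. Miat is a nuclear RNA of neurons, and Bc1 is a short cytoplasmic RNA made by RNA polymerase III, carried into dendrites and known as a repressor of translation.

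The genes were placed on mm10/GRCm38 with the GENCODE M21 annotation. Malat1 (chr19:5795690-5802672, minus strand) and Neat1 (chr19:5824708-5845478, minus strand) are neighbours. Meg3 (chr12:109541001-109571726), Rian (chr12:109603940-109661716) and Mirg (chr12:109729764-109749460) lie on the plus strand of chromosome 12 in that order. Snhg11 is at chr2:158375638-158386145 on the plus strand and is entered there as protein coding, Snhg14 at chr7:59307924-59975759 on the minus strand, Miat at chr5:112213228-112229395 on the minus strand and Bc1 at chr7:144914470-144914637 on the plus strand. The counts are of whole genes and the sources used here do not say that strand was used, so reads of Snhg14 and Ube3a, of Meg3 and Gm26906, and of Miat and Gm26953, which lie opposite each other, cannot be told apart. Rian and Snhg14 also share their strand with the overlapping genes Gm26945 and Gm38393.

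Bc1 is shown whole because it is the one cytoplasmic RNA of the set and its counts set the adult library apart from the aged ones. Its 168 bases hold a run of 23 A and a run of 9 A, in capitals in the sequence read from GRCm38:
Bc1: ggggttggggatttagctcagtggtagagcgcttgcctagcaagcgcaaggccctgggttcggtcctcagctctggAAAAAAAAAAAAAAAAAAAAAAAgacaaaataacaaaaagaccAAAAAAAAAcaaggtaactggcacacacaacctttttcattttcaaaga
A run of 8 or more A was in the longest transcript of 24.2% of the 32098 genes placed, and in 2.44% of the 696 genes whose longest transcript has 300 bases or fewer. A run of 20 or more A was in 1.31% and 0.287% of them. As examples, the longest run of A of Malat1, Rian and Snhg14 is given here in capitals with the bases on both sides, since PIP-seq captures RNA through stretches of A. The longest transcripts of Neat1, Mirg and Miat hold no run of 8 or more, although these RNAs were counted too. Which stretch was captured was not tested:
Malat1: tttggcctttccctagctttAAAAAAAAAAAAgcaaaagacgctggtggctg
Rian: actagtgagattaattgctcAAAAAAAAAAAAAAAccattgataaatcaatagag
Snhg14: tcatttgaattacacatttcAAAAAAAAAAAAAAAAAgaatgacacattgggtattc
The Malat1 run spans bases 6674 to 6685 of a transcript of 6983 bases, so that 298 bases follow it.

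Mirg holds 14 of the microRNA genes of this domain, Rian 3 and Meg3 2. The 26 mature microRNAs of Mirg, matched in RefSeq on GRCm38.p6, have 25 different seeds (bases 2 to 8, in capitals). The pair that shares a seed, miR-453 (chr12:109735669-109735692) and miR-496a-5p (chr12:109739132-109739152), is printed with miR-134-5p (chr12:109734145-109734166), a neuronal microRNA known for its action in dendrites:
miR-453: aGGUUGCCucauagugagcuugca
miR-496a-5p: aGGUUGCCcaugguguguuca
miR-134-5p: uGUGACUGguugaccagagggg
The counts below are of the host RNA, and mature microRNAs were not measured.

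Barcodes with more than 1000 genes were taken as nuclei, 11518 of them adult, 5130 from aged replicate 1 and 2611 from aged replicate 2, 19259 in all. They held 53.8% to 58.4% of each library's 69045987 to 167664164 UMIs, with a median of 3269 to 4900 UMIs per nucleus. Between libraries, at most 1 nucleus barcode was shared by any pair. Clusters built without the 9 genes gave 8039 neuron-like, 4449 SGC-like, 1281 MSC-like, 582 NMSC-like and 1879 fibroblast-like nuclei, with smaller endothelial-like, myeloid-like, T cell-like and B cell-like classes. A mural-like class of 80 nuclei had fewer than 20 in each aged library and is not among the 9 classes compared. The T cell-like cluster also carried SGC and B cell markers. All libraries are labelled male, yet Xist, the RNA of the inactive X chromosome of females, was at 1414 CPM (1 CPM is 0.0001% of UMIs) in adult nuclei and at 844 and 929 CPM in the aged ones, and a Xist UMI was in 49.0% to 73.5% of neuron-like nuclei. Of the Y-linked genes, Ddx3y was at 20.6, 13.2 and 7.87 CPM, Uty at 2.73, 1.00 and 0.718 CPM, Kdm5d at 1.01, 0.591 and 0.611 CPM, and Eif2s3y had 9, 3 and 1 UMIs. A UMI of at least 1 of these Y-linked genes was in 23.9%, 17.5% and 15.4% of neuron-like nuclei. Xist goes against the label in all 3 libraries, and whether male cells were present as well was not tested. The part of sex in the results was not tested.

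In nuclei, Malat1 gave 5947124 UMIs (3.24% of all), Meg3 1243365 (0.677%), Snhg11 323721 (0.176%), Rian 168641 (0.0918%), Neat1 93317 (0.0508%), Snhg14 88143 (0.0480%), Miat 81351 (0.0443%), Bc1 53631 (0.0292%) and Mirg 28979 (0.0158%). Malat1 and Meg3 gave the most and the second most UMIs of all genes. These are counts and are not corrected for transcript length, which runs from 168 bases for Bc1 to 20771 for Neat1.

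Nuclei were first set against the RNA outside them. Barcodes of 10 to 99 UMIs were taken as free RNA, which holds RNA of the cytoplasm and RNA lost from broken nuclei together. Against free RNA of the same library, 6 of the 9 RNAs were higher in nuclei, Bc1 was lower, and Malat1 and Meg3 did not pass the test (edgeR quasi-likelihood test with library as a block, 2 residual degrees of freedom). Across all genes 57.9% passed the same test and 29.1% were higher in nuclei, so that many calls are the background here, and the directions and sizes carry the comparison. The cytoplasmic references give its scale: 77 of 78 ribosomal protein genes were lower in nuclei, with a median log2 difference of −1.89, and 13 of 13 mitochondrially encoded genes were lower, with a median of −1.74, beside a median over all genes of −0.0037.

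Mirg, the microRNA host, lay highest in nuclei over free RNA. Adult nuclei held 156 CPM and adult free RNA 58.0 CPM, and the aged libraries held 145 and 180 CPM in nuclei against 44.0 and 43.1 CPM in free RNA. All 3 libraries were higher in nuclei, and the log2 difference was 1.67 (SE 0.12, edgeR adjusted p = 7.33e-07). Rian, from the same domain, held 1000, 780 and 926 CPM in nuclei against 509, 429 and 398 CPM in free RNA, a log2 difference of 0.95 (SE 0.14, edgeR adjusted p = 0.000137). Meg3, the first of the 3 genes, held 9217, 4061 and 4904 CPM in nuclei against 5268, 3244 and 2866 CPM in free RNA. It was higher in nuclei in every library, but its log2 difference of 0.57 (SE 0.23, edgeR adjusted p = 0.0520) did not pass. Without aged replicate 1 it did, at 0.72 (edgeR adjusted p = 0.0427), and so it did in 4 other alternatives.

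Snhg11 held 2111, 1288 and 1628 CPM in nuclei against 870, 683 and 712 CPM in free RNA. It was higher in nuclei by 1.06 on the log2 scale (SE 0.17, edgeR adjusted p = 0.000198), Snhg14 by 1.01 (SE 0.13, edgeR adjusted p = 3.29e-05) and Miat by 0.97 (SE 0.13, edgeR adjusted p = 6.52e-05). Neat1, the paraspeckle RNA, was higher by 0.82 (SE 0.13, edgeR adjusted p = 0.000231), and by 0.37 (edgeR adjusted p = 0.139) where only barcodes with more than 2000 genes counted as nuclei. Its levels were 626, 433 and 334 CPM in nuclei and 435, 222 and 146 CPM in free RNA. All barcodes taken as nuclei were summed here, those in no class among them, so the mix of cells enters each of these differences. Neat1 was at 0.230, 0.221 and 0.356 times free RNA in neuron-like nuclei and at 8.57, 15.7 and 27.3 times in MSC-like ones. Meg3 was at 2.31, 1.67 and 2.09 times free RNA in neuron-like nuclei and at 0.0950, 0.134 and 0.157 times in SGC-like ones. The part of the mix was not tested.

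Malat1, the speckle RNA, was at 50034 CPM in adult nuclei and 24941 CPM in adult free RNA. The same pair of levels was 14747 and 14106 CPM in aged replicate 1, and 16136 and 12856 CPM in aged replicate 2. The difference was thus large in the adult library and small in the aged ones, and the log2 difference of 0.39 (SE 0.34, edgeR adjusted p = 0.350) did not pass. Bc1 went the other way, with 585 CPM in nuclei and 1257 CPM in free RNA of the adult library, and 11.4 against 22.8 and 6.14 against 16.5 CPM in the aged ones. All 3 libraries were lower in nuclei, by 1.22 on the log2 scale (SE 0.14, edgeR adjusted p = 1.72e-05).

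The size of the barcodes taken as free RNA mattered. Bc1 was at 726 CPM in adult barcodes of 2 to 9 UMIs, 1257 in those of 10 to 99 and 1939 in those of 100 up to 300, while Malat1 was at 39741, 24941 and 19989 CPM in the same bins. Against barcodes of 2 to 9 UMIs, Meg3 was lower in nuclei by 1.09 (edgeR adjusted p = 0.000183), Neat1 by 0.40 and Malat1 by 0.39, turned from the direction against 10 to 99 UMIs, Miat differed by −0.01, and Bc1 by −0.11 (edgeR adjusted p = 0.827). In these barcodes Mirg was at 113, 147 and 143 CPM, against 156, 145 and 180 in nuclei. Rian was at 745, 1018 and 750 against 1000, 780 and 926 CPM, and Snhg11 at 1399, 1595 and 1340 against 2111, 1288 and 1628 CPM. Aged replicate 1 was thus not higher in nuclei for Mirg, Rian or Snhg11. Snhg14 was at 384, 376 and 313 against 521, 429 and 455 CPM.

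**Figure D1:**
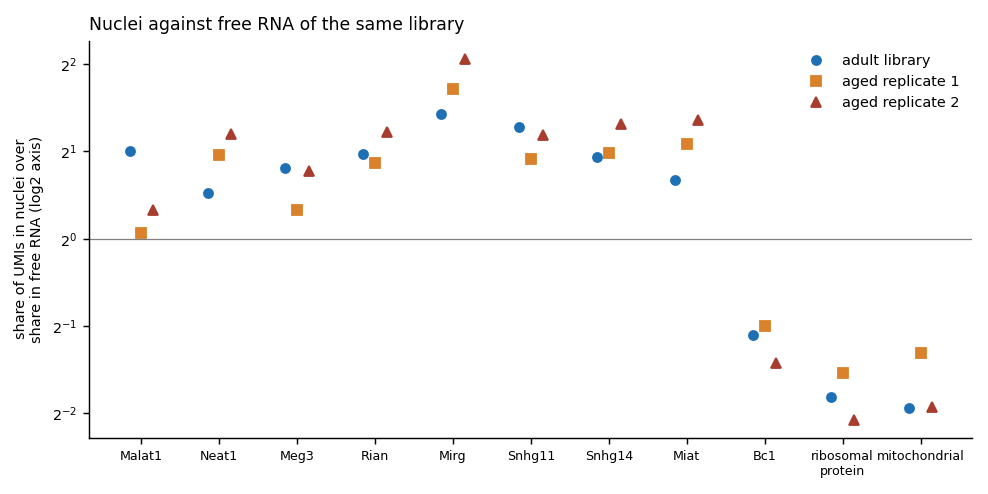
Share of UMIs in nuclei over the share in free RNA of the same library (log2 axis, 10 to 99 UMIs per barcode) for the 9 RNAs and for the summed ribosomal protein and mitochondrially encoded genes. Points are the adult library and the 2 aged libraries, and the line marks equal shares: Bc1 lies below it in all 3 libraries, with both cytoplasmic references, and the other 8 RNAs lie above it.

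Other RNAs with known places were read in the same comparison, from lists chosen with earlier results of these data known. Over all genes 57.9% were called and 29.1% were higher in nuclei. Of 19 other long noncoding RNAs tested, 13 were higher in nuclei and 3 lower, among them Ftx, from the X-inactivation centre, at 1.25, Kcnq1ot1, an imprinted antisense RNA, at 1.16, and H19, an imprinted RNA, at −1.14. Of 15 other snoRNA host genes, 5 were higher, near the share over all genes, and 5 lower, with Snhg20 at 1.36 and Snhg18 at −0.75. In the Snrpn-Ube3a domain, which holds Snhg14, 5 genes were tested: Snurf was higher at 1.64, and Ndn (−1.55) and Snrpn (−0.74) were lower. Of the 2 neighbours tested in the Dlk1-Dio3 domain, Rtl1, the protein-coding gene antisense to its microRNAs, was higher at 0.75. Of 14 paraspeckle and speckle protein genes 6 were higher and 3 lower, such as Pspc1 at 0.73 and Hnrnpk at −0.98. Of 6 genes for proteins that bind Bc1, 3 were lower: Pabpc1 (−1.12), Eif4a1 (−1.04) and Ssb (−0.88).

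The 9 RNAs fell into different patterns over the cell classes. Meg3, Rian, Mirg, Snhg11, Snhg14 and Miat were higher in neuron-like nuclei than in each of the 8 other classes in all 3 libraries, and Neat1 was lower in neuron-like nuclei than in all 8. Levels over classes are a description with no test.

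Meg3 in neuron-like nuclei had 12160 CPM when adult and 5417 and 6003 CPM when aged. That was 11.4, 8.45 and 16.8 times the mean of the other classes. Rian was at 1313, 1045 and 1134 CPM in neuron-like nuclei, 10.0, 10.7 and 19.3 times that mean. Mirg was at 207, 195 and 222 CPM, 13.3, 8.0 and 32.7 times the mean, where the other classes held few Mirg UMIs. In SGC-like nuclei the 3 RNAs of this domain were far lower, with Meg3 at 501, 434 and 450 CPM, Rian at 61.1, 81.7 and 103 CPM and Mirg at 6.92, 13.2 and 13.2 CPM.

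Snhg11 in neuron-like nuclei was at 2775, 1705 and 1976 CPM, 10.3, 7.12 and 12.3 times the mean of the other classes. Fibroblast-like nuclei held more Snhg11 than SGC-like ones in every library, at 428, 710 and 565 CPM against 113, 185 and 258 CPM. Within the fibroblast-like class, the cluster led by Ccdc33 had most, at 836, 1225 and 1169 CPM, against 222, 469 and 422 CPM in the cluster led by Slc47a1 and 199, 316 and 182 CPM in the cluster led by Mmp2. Snhg14 in neuron-like nuclei was at 681, 574 and 554 CPM, 8.76, 9.32 and 12.4 times the other classes, and Miat at 612, 526 and 574 CPM, 10.9, 11.5 and 17.0 times. For both of these RNAs the 3 libraries lay close together.

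Neat1 showed the reverse order. It was at 100.2, 49.1 and 51.9 CPM in neuron-like nuclei and highest in MSC-like nuclei in all 3 libraries, at 3732, 3482 and 3971 CPM. SGC-like nuclei held 2303, 1055 and 955 CPM and fibroblast-like nuclei 1903, 1815 and 1649 CPM. The mean of the other classes was 21.2, 29.7 and 30.2 times the neuron-like level. Free RNA held more Neat1 than neuron-like nuclei in every library.

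Malat1 varied less between classes than the other nuclear RNAs did. Neuron-like nuclei had 43459 CPM when adult and 13711 and 15575 CPM when aged, and the other classes had 1.27, 1.33 and 1.24 times as much. In the adult library SGC-like nuclei had the highest level, 89423 CPM, or 8.94% of their UMIs. Bc1 in adult neuron-like nuclei was at 666 CPM, 1.96 times the mean of the other classes, and in aged ones at 13.5 and 7.01 CPM. The adult free RNA, at 1257 CPM, exceeded every class of adult nuclei in Bc1, as the plot of levels by class shows. With the estimated free RNA subtracted, adult Bc1 was at 591 CPM in neuron-like, 75.5 in SGC-like, 100.1 in MSC-like and 34.4 in fibroblast-like nuclei. No adult Bc1 UMI was left in NMSC-like ones. The share subtracted was 0.111 in adult neuron-like nuclei and 0.148 to 0.258 in these other classes. Free RNA held more Bc1 than any class, so the subtraction itself widens the contrast between neurons and the others. The wider contrast is thus no test of where Bc1 lies.

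**Figure D2:**
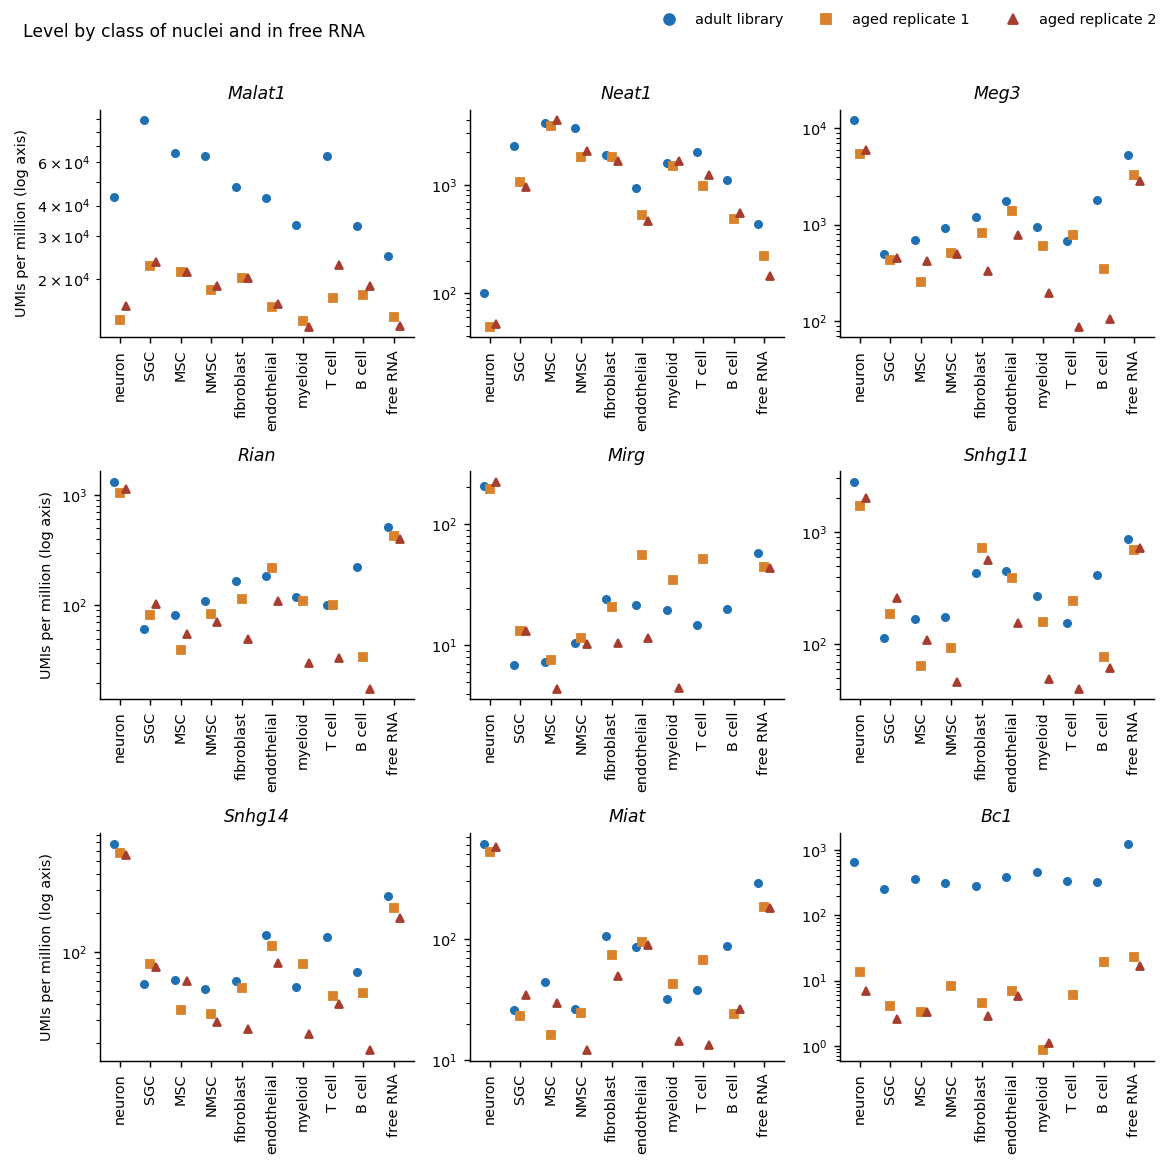
Level of each RNA (CPM, log axis, a scale of its own in each panel) in 9 classes of nuclei and in free RNA, with 1 point per library; a library with no UMI has no point. Meg3, Rian, Mirg, Snhg11, Snhg14 and Miat are highest in neuron-like nuclei, Neat1 is lowest there, and the adult point lies above both aged points in every class for Malat1 and Bc1.

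The neuronal RNAs had UMIs in glia and immune cells too, and so did the neuron markers. The summed level of 8 neuron markers (Isl1, Prph, Snap25, Rbfox3, Tubb3, Syt1, Nefl and Avil) was 6120, 5677 and 4860 CPM in neuron-like nuclei and 1216, 1825 and 1478 CPM in SGC-like nuclei. It was 1926, 1227 and 1177 CPM in MSC-like, 2068, 1545 and 1226 CPM in NMSC-like and 1632, 1584 and 886 CPM in fibroblast-like nuclei, and 8439, 11021 and 10497 CPM in free RNA. All 8 markers had UMIs in each of these groups and none was at 0. Their part in the levels of Meg3, Rian, Mirg, Snhg11, Snhg14 and Miat outside neurons was not tested.

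Neuron-like clusters were set in 2 groups by their Malat1 level. In 4 neuron-like clusters the Malat1 share was under 50% of that of the median neuron-like cluster, a split that uses Malat1, so its level there is a description. These were an NF-like (neurofilament-rich) cluster, an NP-like (non-peptidergic) cluster, a TH-like cluster and a cluster led by Htr3a, and held 15.9% of adult neuron-like nuclei and 34.9% and 25.3% of aged ones. Malat1 was at 6860, 2196 and 2003 CPM there, against 46406, 15641 and 16629 CPM in the other neuron-like clusters. The other RNAs were lower there too in all 3 libraries, apart from Neat1, at 109, 31.9 and 29.5 CPM against 99.5, 52.0 and 53.6 CPM. Meg3 was at 1413, 810 and 726 CPM against 13025, 6189 and 6413 CPM, Mirg at 16.1, 19.1 and 19.8 against 222, 224 and 238 CPM, and Snhg11 at 302, 219 and 190 against 2975, 1955 and 2115 CPM. Bc1 was at 295, 6.48 and 3.69 CPM against 695, 14.7 and 7.26 CPM. Mitochondrially encoded genes took 0.561%, 0.726% and 0.609% of UMIs in these clusters against 0.151%, 0.201% and 0.113%, and ribosomal protein genes 1.35%, 1.27% and 1.21% against 0.526%, 0.554% and 0.415%. Their median nucleus had 3878, 3743 and 3456 UMIs, against 9260, 8620.5 and 14872. Why these barcodes hold little nuclear RNA was not tested.

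In the 9 neuron groups of usual Malat1, the RNAs of the Dlk1-Dio3 domain had the same lowest and highest groups. Meg3 was lowest in NP-like neurons, at 4320 ± 855 CPM (SD, n = 3 libraries), and highest in TRPM8-like, cold-sensing neurons, at 12846 ± 4808 CPM, in all 3 libraries. Rian ran from 696 ± 101 CPM in NP-like to 1959 ± 131 CPM in TRPM8-like neurons, a ratio of 2.81. Mirg ran from 109 ± 32.5 to 342 ± 33.6 CPM between the same groups, with TRPM8-like neurons highest in 2 of 3 libraries. Snhg14 was lowest in NP-like neurons too, at 311 ± 28.3 CPM, and highest in the neurons led by Kcnh5, at 1334 ± 133 CPM, in all 3 libraries. The neurons led by Nxph1 were next, at 1169 ± 194 CPM. The gap between these means lay within the latter SD, which spans both ages and does not measure the gap within a library. Miat was highest in the Kcnh5 group as well, at 1055 ± 103 CPM in all 3 libraries, with the neurons led by Chrna7 next at 780 ± 77.3 CPM and PEP-like (peptidergic) neurons lowest at 416 ± 37.1 CPM. Snhg11 differed less, from 2085 ± 553 CPM in neurons led by Nxph1 to 2964 ± 564 CPM in TRPM8-like neurons, a ratio of 1.42, with TRPM8-like neurons highest in all 3 libraries. Malat1 differed by a ratio of 1.27 between its lowest and highest group. Bc1 was at 387, 7.41 and 5.15 CPM in TH-like neurons and at 1131, 23.7 and 16.4 CPM in SST-like neurons.

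**Figure D3:**
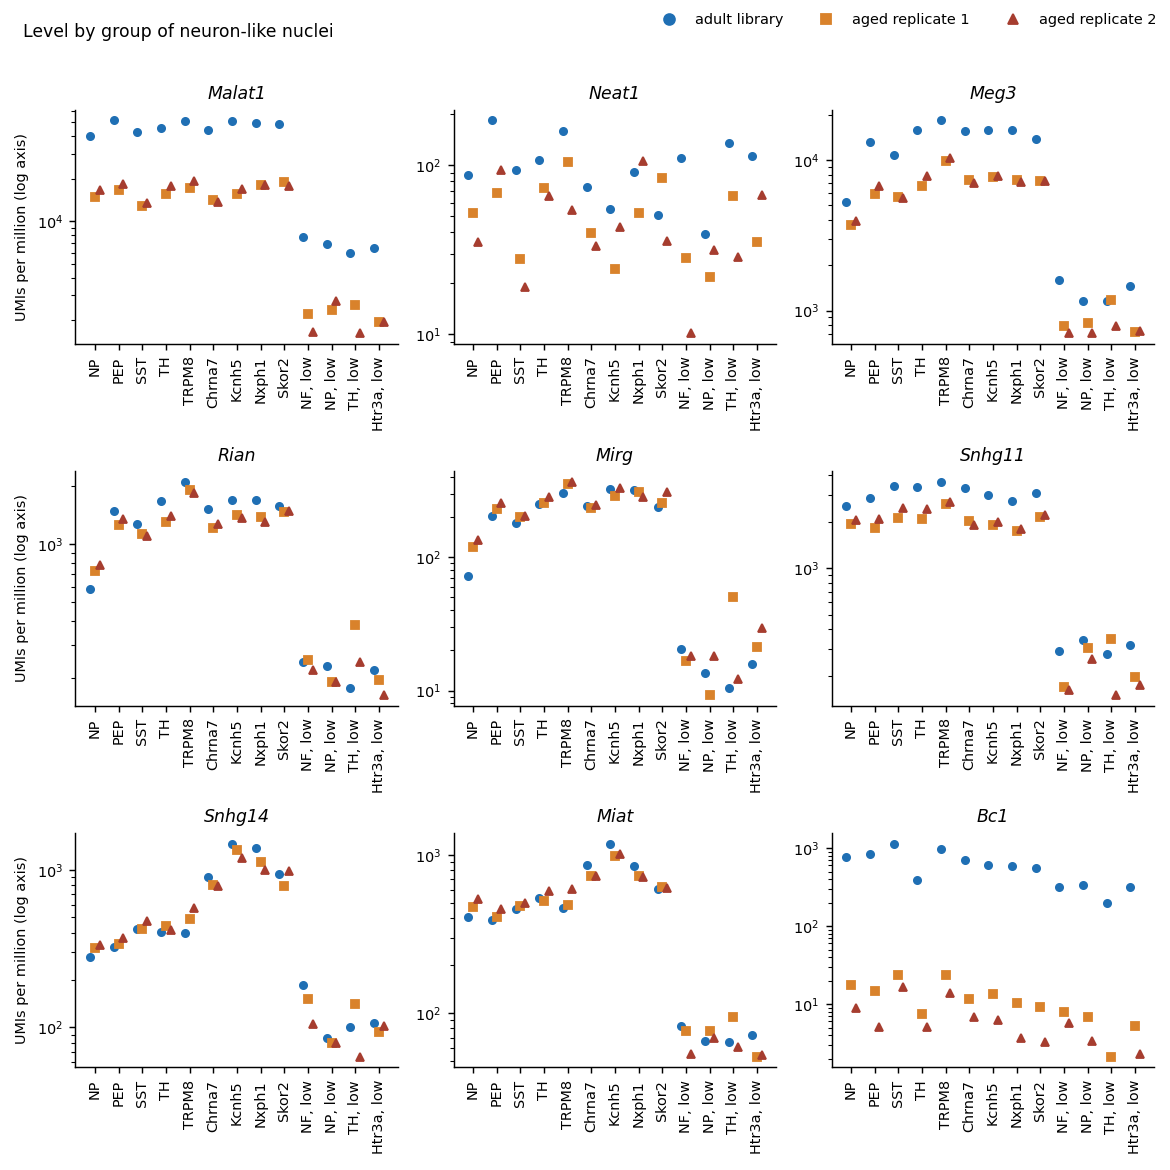
Level of each RNA (CPM, log axis) in the neuron-like groups, with 1 point per library, groups of usual Malat1 first and those of low Malat1 after them; a library with no UMI has no point. By the mean over libraries, Meg3, Rian and Mirg are lowest in NP-like and highest in TRPM8-like neurons among the groups of usual Malat1, and Snhg14 and Miat are highest in the neurons led by Kcnh5.

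The comparison of ages asked how the aged libraries differed from the adult one within each class, and edgeR's quasi-likelihood test was run on UMIs summed per library and class (aged minus adult, 1 residual degree of freedom, with the lone adult library taken to vary like the aged ones). Malat1 and Bc1 were already known to be lower in the aged libraries, and their differences are given with no test. Both aged libraries lay below the adult one for Malat1 in 9 of 9 classes and 13 of 13 neuron groups, and for Bc1 in the same 9 and 13. In classes, the adult level of Malat1 was 1.84 to 3.87 times the mean aged level.

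In SGC-like nuclei Malat1 took 8.82% of the UMIs of the median adult nucleus and 2.41% and 2.55% in the aged libraries. The adult 10th percentile, 6.18%, lay above the aged 90th percentiles of 3.23% and 3.31%, so few nuclei overlapped. In neuron-like nuclei the medians were 3.43%, 1.12% and 1.37%. The median adult SGC-like nucleus had 3068 UMIs and the median aged one 7066 or 7595, and within SGC-like nuclei of more than 3000 genes Malat1 was still at 7.49%, 2.19% and 2.26% of UMIs. Both aged libraries were below the adult one for Malat1 in every bin of gene number with at least 20 nuclei in neuron-like, SGC-like, MSC-like and fibroblast-like nuclei. The log2 differences were −1.69 in neuron-like, −2.12 in SGC-like, −1.70 in MSC-like, −1.96 in NMSC-like and −1.32 in fibroblast-like nuclei, and −0.83 in free RNA.

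Of the 9 RNAs, Bc1 had the largest difference between the libraries in each of these groups. Adult neuron-like nuclei held 44449 Bc1 UMIs and the aged ones 748 in both libraries together, an adult share 62.2 times the aged one (95% counting interval 57.8 to 66.9). In SGC-like nuclei there were 3008 and 24 UMIs, a ratio of 70.5 (47.3 to 110), and in MSC-like nuclei 687 and 11, a ratio of 108 (59.9 to 217). Free RNA held 15497 and 491, a ratio of 65.1 (59.5 to 71.3). The intervals cover counting error only, and those of these 4 groups overlap. Myeloid-like nuclei, with 185 and 2, had the highest ratio, 473 (129 to 3931), and B cell-like nuclei, with 114 and 4, the lowest, 26 (9.87 to 97). Both rest on few aged UMIs. The intervals count UMIs and not libraries, so no difference between classes is drawn from them. A Bc1 UMI was in 85.2% of adult neuron-like nuclei and in 14.9% and 12.8% of aged ones, and in 44.0%, 1.52% and 0.789% after each nucleus was thinned to 1000 UMIs. In SGC-like nuclei the shares were 41.8%, 3.45% and 2.25%, not corrected for free RNA. The subtraction of free RNA left 775 of the 3008 adult and none of the aged Bc1 UMIs in SGC-like nuclei, 149 adult and 2 aged ones in MSC-like nuclei and no adult one in NMSC-like nuclei, so that most Bc1 UMIs of these classes were within the estimated free RNA. Neuron-like nuclei kept 35141 adult UMIs and 441 and 165 aged ones. Of the 72 other genes with a transcript of 300 bases or fewer tested in free RNA, the median log2 difference was −0.31 and the lowest −2.60, against −5.95 for Bc1. Among the 580 genes of 300 to 600 bases the median was −0.58 and the lowest −7.09, and every longer bin also held genes below Bc1.

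In neuron-like nuclei 3 of the 7 RNAs tested fell in the aged libraries and none rose, beside 9.36% of all genes called and 7.50% lower. Meg3 fell by 1.21 on the log2 scale (SE 0.22, edgeR adjusted p = 5.54e-05), Neat1 by 1.11 (SE 0.20, edgeR adjusted p = 5.12e-05) and Snhg11 by 0.71 (SE 0.21, edgeR adjusted p = 0.0219). For each, both aged libraries lay below the adult one and close to each other. Rian, at −0.39 (edgeR adjusted p = 0.279), Mirg, at −0.11 (edgeR adjusted p = 0.807), Snhg14, at −0.39 (edgeR adjusted p = 0.260), and Miat, at −0.27 (edgeR adjusted p = 0.475), did not pass. With free RNA subtracted the difference of Neat1 was −0.87 and no longer passed (edgeR adjusted p = 0.0590), and with neurons gated by markers Snhg11 did not (edgeR adjusted p = 0.150).

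In SGC-like nuclei 4 of 7 passed, 2 in each direction, beside 17.8% of all genes called, 8.48% higher and 9.30% lower. Neat1 fell by 1.37 (SE 0.11, edgeR adjusted p = 6.06e-33) and Meg3 by 0.35 (SE 0.12, edgeR adjusted p = 0.0237). Snhg11 rose by 0.78 (SE 0.13, edgeR adjusted p = 3.02e-07) and Rian by 0.41 (SE 0.15, edgeR adjusted p = 0.0429). The call for Meg3 was lost with DESeq2 (adjusted p = 0.285) and with gated classes (edgeR adjusted p = 0.114). The rise of Snhg11 ended in SGCs gated by markers, at −0.04 (edgeR adjusted p = 0.966), and that of Rian in 6 alternatives, with −0.20 in gated SGCs and an adjusted p of 0.629 with DESeq2. The gate took 2036, 351 and 159 nuclei as SGCs, against 3661, 521 and 267 by clusters. After subtraction of free RNA, SGC-like nuclei kept 0 adult and 531 aged Snhg11 UMIs, and 0 and 69 Rian UMIs, so no fold was given, and no Meg3 UMI was left in any library. Within 3 bins of gene number, both aged libraries were higher than the adult one in 1 bin for Snhg11 and in 0 for Rian, and lower in 3 for Meg3. The 8 neuron markers together were higher in both aged libraries of SGC-like nuclei than in the adult one, as given above, and their part in these differences was not tested. Most adult SGC-like nuclei (1912 of 3661) lay in a cluster led by Lgr5, and most aged ones (360 of 521 and 202 of 267) in a cluster led by Zfp663, so the ages were partly compared across clusters. In the cluster led by Lgr5 the direction of Meg3 turned, with 599 CPM in adult nuclei and 658 and 861 CPM in aged ones, against 413, 345 and 379 CPM in the cluster led by Zfp663. Within the latter cluster alone Rian did not pass (edgeR adjusted p = 0.187), and without aged replicate 2 its difference was 0.24.

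In MSC-like nuclei 4 of 7 fell and none rose, beside 12.4% of all genes called and 7.22% lower. Meg3 fell by 1.17 (SE 0.13, edgeR adjusted p = 6.06e-18), Snhg11 by 1.11 (SE 0.18, edgeR adjusted p = 1.17e-07), Rian by 0.95 (SE 0.23, edgeR adjusted p = 0.000759) and Miat by 1.18 (SE 0.30, edgeR adjusted p = 0.00130). All 4 are RNAs of neurons in these data, the 8 neuron markers were likewise lower in aged MSC-like nuclei, and the share of free RNA estimated from those markers was 0.224 for adult nuclei and 0.123 and 0.112 for aged ones. Their part was not tested. The aged libraries were apart for Snhg11 (64.1 and 110 CPM) and Miat (16.3 and 29.8 CPM), and without aged replicate 1 the differences were −0.68 and −0.67. All 4 calls were lost with DESeq2 (adjusted p = 0.243 to 0.872) and with more than 2000 genes per nucleus (edgeR adjusted p = 0.0557 to 0.394). After subtraction of free RNA no adult UMI of the 4 RNAs was left, nor any of aged replicate 1, and aged replicate 2 kept 88 Meg3, 28 Snhg11, 10 Rian and 9 Miat UMIs. With the adult values at 0, the subtraction can show no fall. Neat1, the one of the 9 with its highest level in MSC-like nuclei, differed by −0.08 (SE 0.09, edgeR adjusted p = 0.619), and by −0.32 after that subtraction (edgeR adjusted p = 2.89e-05). Within 4 bins of gene number, however, both aged libraries were above the adult one for Neat1 in 3 and below it in 0, so that its direction there depends on the treatment of the data.

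In NMSC-like nuclei 3 of 6 fell and none rose, beside 7.67% of all genes called and 4.39% lower. Snhg11 fell by 1.39 (SE 0.27, edgeR adjusted p = 2.09e-05), Meg3 by 1.05 (SE 0.17, edgeR adjusted p = 2.13e-08) and Neat1 by 0.97 (SE 0.11, edgeR adjusted p = 1.65e-14). The call for Snhg11 was lost with DESeq2 (adjusted p = 0.154) and with gated classes (edgeR adjusted p = 0.101). The 8 neuron markers were lower in the aged NMSC-like nuclei too, as given above, and the estimated share of free RNA was 0.258 for adult nuclei and 0.180 and 0.132 for aged ones. After its subtraction no Snhg11 UMI was left in any library and Meg3 kept 0, 0 and 69 UMIs, so it can show no fall of either. Neat1 fell after it by 1.18 (edgeR adjusted p = 3.51e-33). In fibroblast-like nuclei 0 of 7 passed with edgeR, beside 1.51% of all genes called. An unadjusted edgeR p below 0.05 was found for 4 of the 7, and for 1533 of the 13862 genes tested there. DESeq2 called 0 of the 7, beside 0.527% of all genes. Meg3 there was at 1207, 820 and 330 CPM, with the aged libraries far apart, and Snhg11 was higher in both aged libraries with a difference of 0.49 (edgeR adjusted p = 0.367).

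In free RNA 3 of 7 fell and none rose, beside 17.3% of all genes called and 8.92% lower. Neat1 fell by 1.18 (SE 0.19, edgeR adjusted p = 0.00498), Meg3 by 0.72 (SE 0.12, edgeR adjusted p = 0.00606) and Miat by 0.62 (SE 0.10, edgeR adjusted p = 0.00507). In barcodes of 2 to 9 UMIs the direction turned for Meg3, at 0.46, and for Miat, at 0.25. Neat1 was there at 686, 668 and 451 CPM, with aged replicate 1 near the adult library. DESeq2 did not call Neat1 (adjusted p = 0.187).

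**Figure D4:**
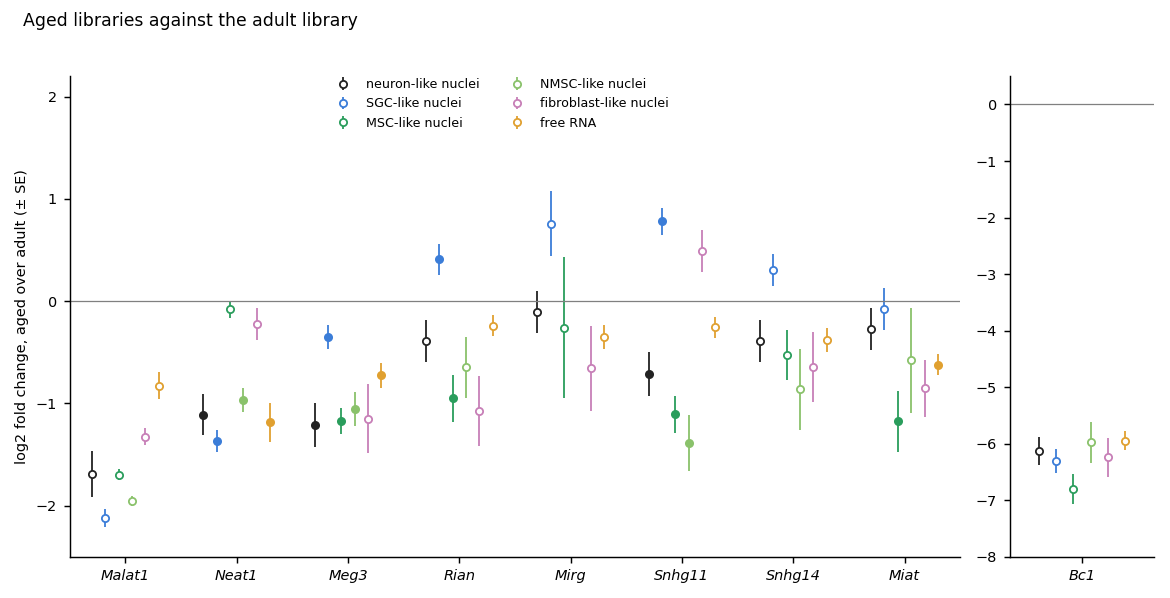
Log2 difference of aged minus adult for each RNA in 5 classes of nuclei and in free RNA, with its standard error; filled points had an edgeR adjusted p below 0.05, and open points did not or, for Malat1 and Bc1, were not tested. Malat1 and Bc1 are below 0 in all 6, Neat1 is near 0 in MSC-like nuclei, and Snhg11 and Rian are above 0 in SGC-like nuclei and below 0 in neuron-like ones.

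Whether neurons and SGCs differed in these changes was tested within libraries (class, library and their interaction with age). The difference passed for 4 of 7 RNAs, all with the lower aged minus adult difference in neurons, beside 3.14% of all genes called and 2.49% lower. Snhg11 gave −1.50 (SE 0.23, edgeR adjusted p = 1.62e-08), Meg3 −0.88 (SE 0.26, edgeR adjusted p = 0.0245), Rian −0.82 (SE 0.22, edgeR adjusted p = 0.0122) and Snhg14 −0.71 (edgeR adjusted p = 0.0317). Mirg gave −0.91 (edgeR adjusted p = 0.0650), Neat1 0.24 (edgeR adjusted p = 0.753) and Miat −0.21 (edgeR adjusted p = 0.837). With DESeq2 Rian (adjusted p = 0.0577) and Snhg14 (adjusted p = 0.173) did not pass. With classes gated by markers, which hold other numbers of nuclei, none of the 4 passed, and Snhg11 had an adjusted p of 0.0822. With more than 2000 genes per nucleus Meg3, Rian and Snhg14 did not pass.

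Within the Dlk1-Dio3 domain the RNAs kept different proportions. For each 100 Meg3 UMIs, adult neuron-like nuclei held 10.8 Rian UMIs and aged ones 19.3 and 18.9. SGC-like nuclei held 12.2, 18.8 and 23.0, and MSC-like nuclei 11.8, 15.4 and 13.2. In free RNA, whose molecules come from the cytoplasm and from broken nuclei, the ratio was 9.67, 13.2 and 13.9. Fibroblast-like nuclei gave 13.8, 13.9 and 15. Both aged libraries lay above the adult one in each of these groups, but not in T cell-like nuclei, with 14.8, 12.8 and 38.5, or in B cell-like nuclei, with 12.4, 9.72 and 16.7. Mirg per 100 Meg3 UMIs was 1.70, 3.60 and 3.70 in neuron-like nuclei, 1.38, 3.03 and 2.94 in SGC-like nuclei and 1.10, 1.36 and 1.51 in free RNA. The ratios are a description of the same libraries as the folds above and were not tested.

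**Figure D5:**
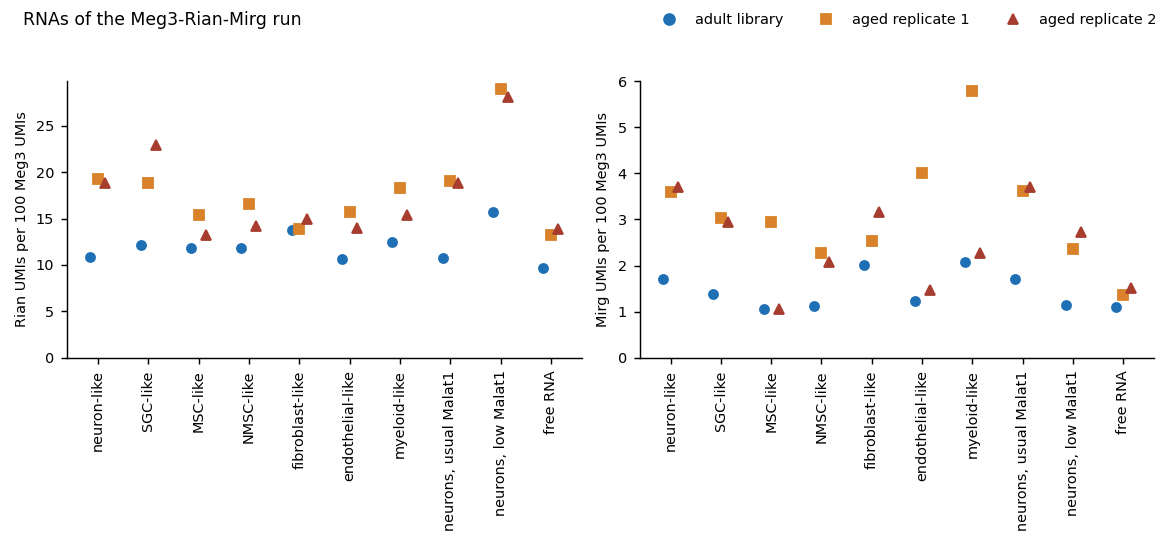
Rian UMIs (left) and Mirg UMIs (right) per 100 Meg3 UMIs by class of nuclei, in neuron-like clusters of usual and low Malat1 and in free RNA, with 1 point per library on linear axes that start at 0. In neuron-like nuclei the adult point is at 10.8 for Rian and 1.70 for Mirg, below both aged points.

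The neighbours of these genes, and RNAs and proteins of the same bodies, were read from lists chosen with earlier results of these data known. Their counts and p-values are thus a description of these libraries. In neuron-like nuclei 1 of 15 other snoRNA host genes fell and none rose, and it was Snhg20 (−1.16, edgeR adjusted p = 2.22e-05). In SGC-like nuclei 6 of 15 fell, with Snhg20 at −1.57 and Snhg8 at −1.09, and in free RNA 4 of 15 fell, with Snhg20 at −1.71. Snhg20 was also the one called of 13 in MSC-like nuclei (−0.74) and of 11 in NMSC-like nuclei (−1.48). Over all genes 7.50% were called lower in neuron-like, 9.30% in SGC-like, 7.22% in MSC-like and 4.39% in NMSC-like nuclei and 8.92% in free RNA, so that 1 call in a list of this size is near the background. The medians of the list were −0.15 in neuron-like nuclei, −0.52 in SGC-like nuclei and −0.20 in free RNA, beside medians over all genes of 0.01, 0.01 and −0.01.

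Of 3 Dlk1-Dio3 neighbours tested in neuron-like nuclei, Rtl1 fell by 2.13 (edgeR adjusted p = 1.72e-08), beside 7.50% of all genes lower. In free RNA 2 of 3 fell, Dlk1 (−2.40) and Rtl1 (−2.12), beside 8.92% of all genes lower. None of the neighbours could be tested in SGC-like, MSC-like or NMSC-like nuclei. Of the Snrpn-Ube3a domain, 1 of 6 rose in neuron-like nuclei (Snurf at 0.78) and 1 of 4 in SGC-like nuclei (Ndn, a growth-restraining protein, at 1.15), 1 of 3 fell in MSC-like nuclei (Snrpn at −0.77), and in free RNA 2 of 5 rose (Ndn at 1.09 and Ube3a, which lies opposite Snhg14, at 0.42). Over all genes 1.86% were called higher in neuron-like nuclei, 8.48% in SGC-like nuclei and 8.42% in free RNA, and 7.22% lower in MSC-like nuclei, and with so few genes in the list these counts say little about it.

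Of 14 paraspeckle and speckle protein genes, 1 rose (Rbm14 at 1.05) and 1 fell (Son at −0.85) in neuron-like nuclei, where 9.36% of all genes were called. Son, a scaffold protein of speckles, fell as well in SGC-like (−0.95), MSC-like (−0.53) and NMSC-like nuclei (−0.79). In MSC-like nuclei Srsf7 fell too (−0.52) and Srsf5 rose (0.43), where 12.4% of all genes were called. In free RNA 4 of 14 rose, led by Prpf8 (0.67), and 1 fell, beside 8.42% of all genes higher and 8.92% lower. In SGC-like nuclei 1 of the 14 rose (Pspc1, a paraspeckle protein, at 0.50), and Srsf7 (−0.71) and Srrm2 (−0.48) fell beside Son, where 8.48% of all genes were called higher and 9.30% lower. Of 20 other long noncoding RNAs in neuron-like nuclei 3 fell and none rose, led by H19 (−2.48), beside 7.50% of all genes lower. In SGC-like nuclei 2 of 17 rose (Peg13 at 1.03 and Norad at 1.00) and 3 fell, with Xist at −0.83, beside those same shares over all genes. In free RNA 7 of 19 fell, led by H19 (−2.02), and 1 rose, beside 8.92% of all genes lower and 8.42% higher. Xist fell as well in neuron-like (−0.80), MSC-like (−0.47) and NMSC-like nuclei (−1.03) and in free RNA (−0.87). In fibroblast-like nuclei 0 of 16 fell. Pvt1 rose in NMSC-like (2.11) and fibroblast-like nuclei (1.40). Of the 6 genes for proteins that bind Bc1, none was called in neuron-like nuclei, 4 rose in free RNA, led by Fmr1, the fragile X protein gene, at 0.50, beside 8.42% of all genes higher there, and Pabpc1, the poly(A)-binding protein gene, fell in MSC-like nuclei (−0.44).

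The cytoplasmic references moved between ages too. Of the ribosomal protein genes, 36 of 77 fell and 1 rose in SGC-like nuclei, beside 9.30% of all genes lower, and 42 of 77 fell in MSC-like nuclei, beside 7.22%. In neuron-like nuclei 3 of 78 fell and 1 rose, beside 7.50% of all genes lower. Of the mitochondrially encoded genes 5 of 13 rose in neuron-like nuclei, beside 1.86% of all genes higher. In SGC-like nuclei 4 of 12 rose and 4 fell, beside 8.48% higher and 9.30% lower, and 7 of 12 fell in MSC-like nuclei, beside 7.22% lower. Their part in the differences of Bc1 and Meg3 was not tested.

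The genes most like each RNA over the 27 sums of 9 classes in 3 libraries were found by Pearson's r of log2(CPM + 1) among 11690 genes. The sums share libraries, depth and classes, so r is a description. Meg3 and Rian were nearest to each other (r = 0.97), ahead of Gap43, a growth cone protein (0.95), and Elavl4, a neuronal RNA-binding protein (0.94), for Meg3, and of Dpp6 (0.96) and Kctd8 (0.96) for Rian. Mirg was nearest to Gpr45 (0.95), Dok4 (0.94) and Six4 (0.93), and had r = 0.89 with Meg3 and 0.91 with Rian. Snhg11 was nearest to the potassium channel gene Kcnd3 (0.97), Rbfox1 (0.94) and Galnt13 (0.94), Snhg14 to the calcium channel gene Cacna1b (0.94), Gm26871 (0.94) and Lingo2 (0.94), and Miat to Kcnip4 (0.96), Kcnb2 (0.94) and Gpr158 (0.94). Neat1 followed Plin3, a lipid droplet protein (0.92), Pxn, a focal adhesion protein (0.91), and Zfp395 (0.90), and its r with Miat was −0.79. Malat1 was nearest to Gm48594 (0.90), Gm16551 (0.88) and Dsp (0.87), and Bc1 to Gm9920 (0.95), Gm27177 (0.93) and the same Gm16551 (0.93). Malat1 and Bc1 had r = 0.82 with each other, across libraries that differ in both.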

How the data were processed

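Single-nucleus libraries were made by PIP-seq from L3 to L5 DRG, 1 adult and 2 aged, and the authors deposited for each a matrix of UMI counts per gene and barcode, not normalized. The submitters' processing notes name PIPseeker and mm10. The aligner settings and the annotation are not given in the sources used here. Total UMIs per library were 167664164, 95647106 and 69045987, and the intervals given cover counting error only.

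The 9 RNAs and all gene lists were chosen with earlier results of these data known. Named were all 9, called or not, the 3 genes most like each, and up to 4 called genes of each list with the largest differences. A barcode counted as a nucleus above 1000 genes, and as free RNA from 10 to 99 UMIs. Nuclei were clustered without the 9 genes in Seurat 5.3.0 (SCTransform and RPCA integration by age, 30 components, resolution 0.8). Clusters were named from marker lists by a rule written after the clusters were seen: neuron-like with 5 or more of 8 neuron markers over 2-fold above the lower quartile of clusters, otherwise the class with 3 or more markers. Clusters with markers of neurons and of a glial class (1307 nuclei) were left out of the classes. So was 1 cluster led by erythroid genes (90 nuclei), and doublets were treated only in this way. These clusters stayed in the sums over all nuclei, which give the UMI totals and the comparison with free RNA. Other clusters with 3 or more markers of a further class were kept under the class of the highest mean fold: both SGC-like clusters (NMSC markers), the NMSC-like one (collagen genes), the T cell-like one and 1 fibroblast-like one (SGC markers). A difference from other accounts of these data may come from these rebuilt names.

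Nuclei are not replicates. UMIs were summed per library and class and tested in edgeR 4.0.16 (R 4.3.3; TMM scaling, filterByExpr, quasi-likelihood test, prior count 0.125, Benjamini-Hochberg adjustment over all genes, threshold 0.05). This replaces the rank sum test over nuclei that the study used. Alternatives were DESeq2 1.42.0, no filter, Malat1 out of the scaling, more than 2000 genes, the 9 RNAs kept in the clustering, classes gated by 2 or more markers, free RNA subtracted by its share estimated from markers, other bins of free RNA and leaving out each library. The test was tried on simulated counts with known changes. In them the adult library was made to vary like the aged ones, so the simulation cannot check that assumption of the age test. A gene on which the free RNA correction left 3 or fewer UMIs in a group got no fold.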

Additional observations from a re-analysis of the deposited data

Results flagged for a closer look

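By the test of the difference itself (neuron minus SGC, edgeR adjusted p below 0.05), 4 of the 7 RNAs tested passed. Their aged minus adult difference was lower in neuron-like than in SGC-like nuclei: Snhg11 by −1.50, Meg3 by −0.88, Rian by −0.82 and Snhg14 by −0.71. Over all genes 3.14% were called and 2.49% were lower. None of the 4 passed with classes gated by markers.

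In other pairs of classes both aged libraries lay on one side of the adult library in one class and on the other side in the other, and these differences were not tested. For Snhg11 the aged minus adult difference was lower in neuron-like than in fibroblast-like nuclei by −1.20, higher in SGC-like nuclei than in MSC-like by 1.89 and than in NMSC-like by 2.17, and lower than in fibroblast-like nuclei by −1.60 in MSC-like and by −1.88 in NMSC-like nuclei. For Rian it was higher in SGC-like nuclei by 1.36 against MSC-like, 1.06 against NMSC-like and 1.48 against fibroblast-like nuclei. For Snhg14 these 3 values were 0.84, 1.17 and 0.95, and for Mirg SGC-like nuclei were higher than fibroblast-like ones by 1.41. With gated classes the aged minus adult difference turned negative in SGC-like nuclei for Rian (−0.20), Mirg (−0.65), Snhg11 (−0.038) and Snhg14 (−0.048) and in fibroblast-like nuclei for Snhg11 (−0.12), and after subtraction of free RNA that of Snhg14 in fibroblast-like nuclei turned to 0.92, so that these directions changed with the processing. Each of these RNAs is at a low level in glia, and the summed neuron markers were higher in aged than adult SGC-like nuclei and lower in aged MSC-like and NMSC-like nuclei. Their part was not tested.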

How the results depend on the processing

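Of 594 values of the 9 RNAs under alternatives, 471 kept their direction and their side of the threshold or moved within the spread, 36 lost a call, 16 gained one, 53 moved and 18 reversed. A value with no test counted as reversed only where the main result had been called. Other turns of sign, if any, are thus among the kept or moved values. A pair of alternatives was chosen after seeing the data: only the SGC-like cluster with most aged nuclei, and only neuron-like clusters of low Malat1. Counts of genes called moved as follows. In neuron-like nuclei 2048 genes became 628 with DESeq2, 982 without a filter, 1275 with gated classes, 1044 after subtraction of free RNA and 3174 without clusters of low Malat1. In SGC-like nuclei 2656 became 427 with DESeq2, 672 gated and 850 after subtraction. In MSC-like nuclei 1652 became 182 with DESeq2, 631 above 2000 genes and 1074 after subtraction, and in NMSC-like nuclei 792 became 147 with DESeq2. In fibroblast-like nuclei 210 became 73 with DESeq2, 599 without a filter, 339 above 2000 genes, 593 gated and 823 after subtraction. In free RNA 3326 became 945 with DESeq2 and 599 in barcodes of 2 to 9 UMIs. Between nuclei and free RNA 12136 became 2597 with barcodes of 2 to 9 UMIs and 9695 to 12409 when a library was left out. For the neuron against SGC difference, the percentage of genes called went from 3.14% to 0.853% with DESeq2, 1.54% above 2000 genes and 1.45% gated. Its 135 higher and 520 lower calls became 10 and 168 with DESeq2. In neuron-like nuclei, the share with a UMI went from 74.6% to 36.3% after thinning (median over the 9 RNAs, averaged over libraries).

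Reversed with gated classes were, in SGCs, Rian (−0.20), Mirg (−0.65), Snhg11 (−0.038) and Snhg14 (−0.048), Neat1 in MSCs (0.0016), Snhg11 in fibroblasts (−0.12) and the difference for Mirg between neurons and SGCs (0.34). In barcodes of 2 to 9 UMIs, the age difference reversed for Meg3 (0.46), Rian (0.27), Mirg (0.38), Snhg11 (0.092) and Miat (0.25), and nuclei over free RNA for Malat1 (−0.39), Neat1 (−0.40), Meg3 (−1.09) and Miat (−0.013). Mirg reversed in neurons of low Malat1 (0.21) and Snhg14 in fibroblasts after subtraction (0.92). The cause was not tested. No paired analysis was possible because the ages share only replicate number 1. With aged replicate 1 or 2 left out no test of age remains, so those are values only.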
